A study of Homo sapiens with 12 samples.

Results

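The genes examined here are the 10 that carry pyruvate into mitochondria, send citrate out and make or move the acetyl-CoA that results: MPC1, MPC2, PC, SLC25A1, SLC13A5, ACLY, ACSS1, ACSS2, ACSS3 and SLC33A1. They were chosen by name for their known roles, with earlier results of these data known although the rule itself uses no measured value, and are 10 of the 57500 genes in the count table. The table holds 12 RNA-seq libraries of MRC5, a line of human lung fibroblasts, in 4 groups of 3. Proliferating cells (Prol) were untreated, and the 3 other groups had been made senescent by X-ray irradiation at 20 Gy and collected 10 to 12 days later. Sen(IR) cells received no inhibitor, Sen(IR)+UK5099 cells received 100 µM UK5099, which blocks the mitochondrial pyruvate carrier, and Sen(IR)+CTPI2 cells received CTPI2, which blocks the mitochondrial citrate carrier, in both cases from 1 day after irradiation. The methods keep both inhibitors in the medium for 12 days. The sample titles give no collection day, so whether it differed between the groups is not known. The study used CTPI2 at 15 or 30 µM, and the labels do not say which of these the sequenced cells had. No group combined an inhibitor with proliferating cells. All libraries come from 1 cell line. The study describes its RNA-seq replicates as independent experiments or conditions, while the labels do not say whether the 3 libraries of a group were separate cultures, so each p-value measures the spread between these samples, part of which may be technical.

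Pyruvate made by glycolysis crosses the inner mitochondrial membrane through the mitochondrial pyruvate carrier, a complex of MPC1 and MPC2. Inside, it becomes acetyl-CoA through pyruvate dehydrogenase or oxaloacetate through pyruvate carboxylase (PC), and both products meet in citrate. Acetyl-CoA cannot cross the membrane itself. Citrate leaves through the citrate carrier SLC25A1 and is split in the cytosol by ATP-citrate lyase (ACLY), which gives the acetyl-CoA used for lipids and for acetylation of histones. ACSS2 makes acetyl-CoA from acetate in the cytosol and nucleus, ACSS1 and ACSS3 do related work in mitochondria, SLC33A1 carries acetyl-CoA into the endoplasmic reticulum and SLC13A5 takes citrate up from outside the cell.

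Totals ran from 20597736 to 28245693 counts per library. The 10 fibroblast markers examined were all detected, with summed levels from 10910 to 25400 CPM (counts scaled to library size), whereas the summed epithelial, endothelial and blood cell markers stayed at or below 2.04, 6.31 and 4.87 CPM. The epithelial markers KRT5 and KRT14 were at 0 in Prol, Sen(IR) and Sen(IR)+CTPI2, and PTPRC, which marks blood cells in general, had group means of 0.0124 to 0.274 CPM. The summed blood cell markers went from 0.3 to 0.384 CPM in Prol to 3.19 to 4.41 CPM in Sen(IR), and the 1 tested gene among them, CD14, rose from 0.192 to 3.32 CPM (log2 fold change 4.09). The part of these marker shifts in the members' values was not tested. Mitochondrially encoded genes took 3.81 to 4.23% of counts with UK5099, and 2.36 to 3.28% over the libraries of the other groups. The chi-square per gene between libraries of a group was 7.99 to 13.4 in Prol, 2.28 to 3.38 in Sen(IR) and 4.56 to 5.14 with UK5099. With CTPI2 it was 2.82 between replicates 1 and 2, and 8.71 and 7.75 from these to replicate 3, which stood apart within its group. The values to replicate 3 were near the lower end of those between Prol libraries.

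Of the 10 genes, 9 passed the filter on low counts and were tested among 16251 genes. A gene was called when its Benjamini-Hochberg adjusted p in edgeR's quasi-likelihood test was under 0.05 and its log2 fold change was beyond 0.5 in either direction. Each log2 fold change below is the difference between the first and second group named, and each level is in CPM after TMM scaling unless given per kilobase of transcript. In these bulk samples a change in the number of cells that carry a transcript and a change in transcript per cell cannot be told apart.

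The upstream sequences of 3 members show what stands before the genes that were called in Sen(IR) against Prol or on UK5099 and have an entry in the RefSeq promoter table (GRCh38.p14), which held 9 of the 10 members and no entry for ACSS3. Each line gives the 250 bases before the outermost listed start, 5′ to 3′ on the gene's own strand, with GC boxes (GGGCGG) and CCAAT boxes (CCAAT) of either strand in capitals. The windows lie at chr22:19178737-19178986 (minus strand) for SLC25A1, chr11:66958384-66958633 (minus strand) for PC and chr1:167937073-167937322 (minus strand) for MPC2.
SLC25A1: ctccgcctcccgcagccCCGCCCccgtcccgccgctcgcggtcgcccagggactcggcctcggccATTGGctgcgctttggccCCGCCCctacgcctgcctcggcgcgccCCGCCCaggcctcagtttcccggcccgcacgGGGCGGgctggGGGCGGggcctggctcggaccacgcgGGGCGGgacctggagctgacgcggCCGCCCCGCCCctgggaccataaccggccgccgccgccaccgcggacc
PC: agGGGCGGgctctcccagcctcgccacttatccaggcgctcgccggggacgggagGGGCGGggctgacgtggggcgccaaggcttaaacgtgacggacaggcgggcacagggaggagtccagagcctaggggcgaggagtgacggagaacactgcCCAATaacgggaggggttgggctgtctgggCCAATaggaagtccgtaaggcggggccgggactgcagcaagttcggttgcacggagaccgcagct
MPC2: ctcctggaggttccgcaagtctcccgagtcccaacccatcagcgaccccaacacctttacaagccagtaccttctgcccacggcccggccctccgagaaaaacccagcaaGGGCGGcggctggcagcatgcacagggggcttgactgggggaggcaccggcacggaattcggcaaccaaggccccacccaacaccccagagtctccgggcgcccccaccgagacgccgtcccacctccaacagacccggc
The SLC25A1 window held 8 GC boxes and 1 CCAAT box. The PC window held 2 of each. The MPC2 window held 1 GC box. Windows of other listed starts could differ. For MPC2, the one at chr1:167935997-167936246 held 3 GC boxes and 1 CCAAT box. For PC, the one at chr11:66907954-66908203 held 0 GC boxes and 1 CCAAT box, and the one at chr11:66906035-66906284 held 2 GC boxes and 0 CCAAT boxes. Of all 35116 windows of this length in the table, 42.6% held a GC box and 32.0% a CCAAT box, so both are common letters to find there. The sterol response element TCACNCCAC, searched on both strands, was in none of the 17 windows of the 9 members and in 0.883% of all windows. No match of 1 kind overlapped a match of another in these windows, and a match is a run of letters, not a bound site.

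The levels of the members differed widely. Per kilobase of the MANE Select transcript, ACLY stood first in every group, at a mean of 82.6 CPM per kb in Prol, 90.7 in Sen(IR), 75.7 in Sen(IR)+UK5099 and 88.5 in Sen(IR)+CTPI2. SLC25A1 came second at 39.7, 61.5, 72.2 and 63.2 CPM per kb in the same order. In Sen(IR), MPC2 (25.7), MPC1 (16.4), ACSS2 (14.4), SLC33A1 (8.61), PC (2.04), ACSS3 (1.71) and ACSS1 (0.253 CPM per kb) followed, and no neighbours in that order overlapped between their lowest and highest library. The exceptions in the other groups were MPC1 and MPC2 in Prol, ACLY and SLC25A1 in Sen(IR)+UK5099, and PC and ACSS3 in Sen(IR)+CTPI2, whose ranges overlapped. With the length of all annotated exons in place of the MANE transcript, ACSS2 and SLC33A1 changed places in Sen(IR) and Sen(IR)+UK5099, and MPC1 and MPC2 in Prol. SLC13A5, the plasma membrane citrate transporter, had 2 counts in Sen(IR) replicate 1 and 0 in the other 11 libraries, where 3 counts would be 0.111 to 0.147 CPM, and was not tested.

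**Figure D1:**
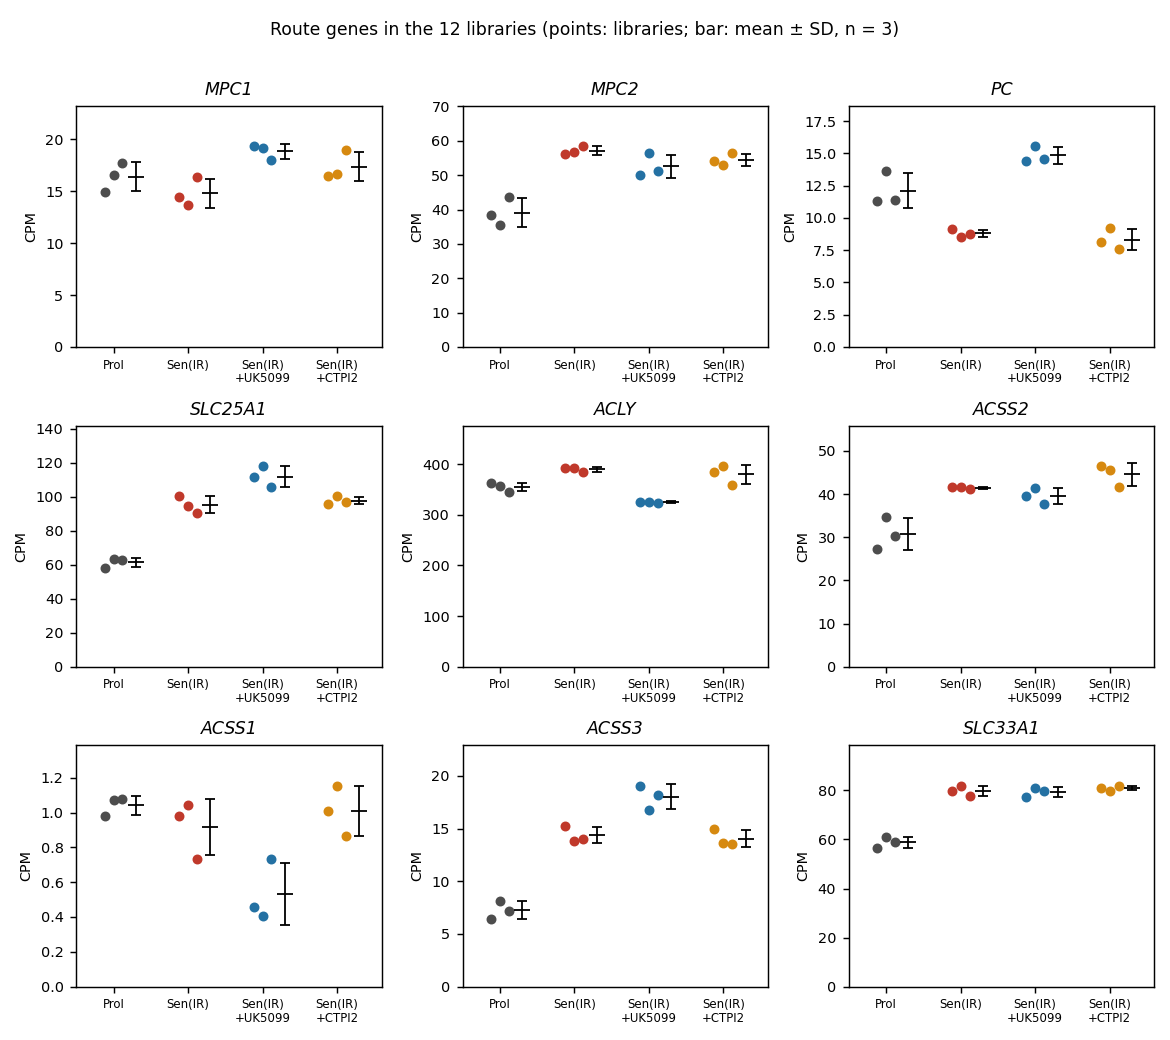
Level of the 9 tested route genes in each of the 12 libraries (y axes: CPM, each from 0; x axes: the 4 groups), with the mean ± SD (n = 3) as a bar beside the points. MPC2, SLC25A1, ACSS2, ACSS3 and SLC33A1 lie higher in all 9 irradiated libraries than in Prol. PC is high in Prol and Sen(IR)+UK5099, and ACLY is lowest in Sen(IR)+UK5099.

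Irradiated cells without inhibitor were compared with proliferating cells to see how the route differs in senescence. SLC25A1, ACSS3 and MPC2 rose, no member was called lower, and MPC1, the partner of MPC2, did not pass the test. The 3 members called higher stand against 24.8% of all tested genes called higher and 22.4% called lower. The median log2 fold change of the 9 tested members was 0.43, against 0.01 over all genes, and 7 of the 9 did not overlap between the groups, as did 70.9% of all tested genes, so this share is near the background. Of these 7, ACLY, ACSS2 and SLC33A1 were higher, and PC lower, by less than the fold limit.

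The subunits of the pyruvate carrier differed from each other. MPC1 (chr6:166364919-166383013) had 14.9, 16.6 and 17.7 CPM in Prol and 14.4, 13.7 and 16.4 CPM in Sen(IR). These ranges overlapped, and the log2 fold change was -0.15 ± 0.09 (SE, 95% interval -0.34 to 0.05, adjusted p = 0.164). MPC2 (chr1:167916675-167937072) had 38.3, 35.4 and 43.6 CPM in Prol and 56.1, 56.8 and 58.5 CPM in Sen(IR). Every Sen(IR) library was above every Prol library, and MPC2 rose by a log2 fold change of 0.55 ± 0.07 (SE, adjusted p = 4.44e-07), or 1.46-fold. Without Prol replicate 2 the value was 0.48, under the fold limit. Of the exon bases of MPC2, 21.8% are shared with DCAF6 on the other strand, which was itself higher (0.39), and the counting used strand only if the library preparation kept it, which the sources used here leave unstated.

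The ratio of MPC2 to MPC1 within a library shows the same difference free of scaling between libraries. Per kilobase it was 0.868 to 1.04 in Prol and 1.45 to 1.69 in Sen(IR), and it then lay between these in both inhibitor groups, at 1.05 to 1.19 with UK5099 and 1.21 to 1.34 with CTPI2. The 4 ranges did not overlap. An exact two-sided permutation test of the log ratio gave p = 0.1 for each of the 4 comparisons made (adjusted p = 0.114 over 8 tests), the smallest that 3 libraries against 3 allow. The ratio of ACLY to ACSS2 was 6.91 to 8.9 in Prol and 6.25 to 6.34 in Sen(IR), with 5.27 to 5.75 under UK5099 and 5.54 to 5.86 under CTPI2 (exact permutation p = 0.1 for all but UK5099 against CTPI2, where the ranges overlapped and p = 0.3).

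**Figure D2:**
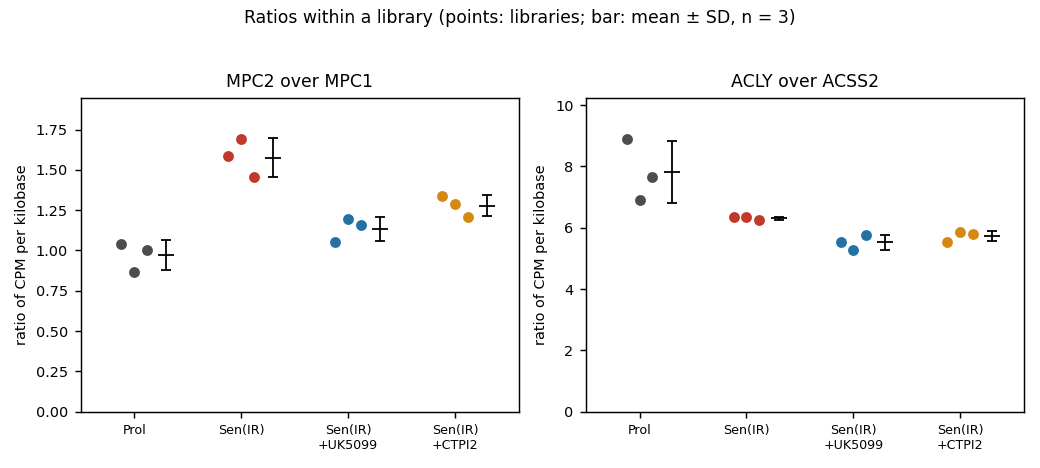
Ratios of CPM per kilobase within each library (y axes, from 0) by group (x axes), with the mean ± SD (n = 3) as a bar. MPC2 over MPC1 is lowest in Prol (0.868 to 1.04) and highest in Sen(IR) (1.45 to 1.69), and ACLY over ACSS2 is highest in Prol.

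PC, the carboxylase that turns mitochondrial pyruvate into oxaloacetate, went the other way from the exporter. PC (chr11:66848417-66958386) had 11.3, 13.7 and 11.4 CPM in Prol and 9.12, 8.53 and 8.73 CPM in Sen(IR). All 3 Sen(IR) libraries were below Prol, with a log2 fold change of -0.46 ± 0.11 (SE, adjusted p = 0.00054) that was short of the fold limit and went past it without Prol replicate 1 (-0.50) or replicate 3 (-0.51).

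SLC25A1 (chr22:19175581-19178739), the citrate exporter and the target of CTPI2, had 58.2, 63.5 and 62.6 CPM in Prol and 100.7, 94.4 and 90.7 CPM in Sen(IR). The groups were far apart, and SLC25A1 rose by 0.63 ± 0.06 (SE, adjusted p = 2.22e-09), or 1.55-fold. Its exons share no bases with another gene, but 5 pseudogenes (SLC25A1P1 to SLC25A1P5) are annotated, among which reads could have been split. ACLY (chr17:41866917-41930542), the next step, was already the most abundant member and differed little, at 362.6, 355.8 and 345.6 CPM in Prol and 393.0, 391.7 and 383.8 CPM in Sen(IR). The groups did not overlap, with a log2 fold change of 0.14 ± 0.05 (SE, adjusted p = 0.0142).

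Among the acyl-CoA synthetases, ACSS3 (chr12:80936414-81261210), a mitochondrial enzyme that acts on short-chain acids such as propionate, had the largest fold change of the members. Its levels were 6.44, 8.11 and 7.21 CPM in Prol and between 13.8 and 15.3 CPM in Sen(IR), a rise of 0.99 ± 0.10 (SE, adjusted p = 1.53e-08), or 1.98-fold. Its exons share 10.7% of their bases with PPFIA2 and LIN7A on the other strand, of which LIN7A was lower (-0.79). ACSS2 (chr20:34872146-34927962) had 27.4, 34.6 and 30.4 CPM in Prol and between 41.2 and 41.6 CPM in Sen(IR). The difference of 0.43 ± 0.08 (SE, adjusted p = 3.02e-05) was short of the fold limit. It passed the limit without Prol replicate 2 (0.52) and under upper-quartile scaling (0.55). ACSS1 (chr20:25006230-25058980), the mitochondrial acetate enzyme, was near 1 CPM, with 23 to 29 counts in Prol and 15 to 22 in Sen(IR), and its interval of -0.83 to 0.47 was too wide to show a change in either direction.

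SLC33A1 (chr3:155821024-155854456) had 56.5, 61.1 and 59.0 CPM in Prol and 79.7, 82.0 and 77.8 CPM in Sen(IR). The groups were well apart, and the log2 fold change of 0.44 ± 0.05 (SE, adjusted p = 1.43e-07) was short of the fold limit. SLC33A1 passed the limit under upper-quartile scaling (0.56). A gene on the same strand shares 21.1% of its exon bases and has no row in the table. Beside these values, transcripts of 9 nuclear genes taken as markers of mitochondrial mass summed to 1955 to 2157 CPM in Prol and 1397 to 1445 CPM in Sen(IR). Of the 9, 6 were called lower and none higher, beside 22.4% and 24.8% of all tested genes, and 8 had an unadjusted p under 0.05. The mitochondrially encoded share went the other way, at 2.36 to 2.68% of counts in Prol and 2.78 to 3.21% in Sen(IR). These are transcript levels and do not measure mass. The part of these shifts in the members' values was not tested.

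**Figure D3:**
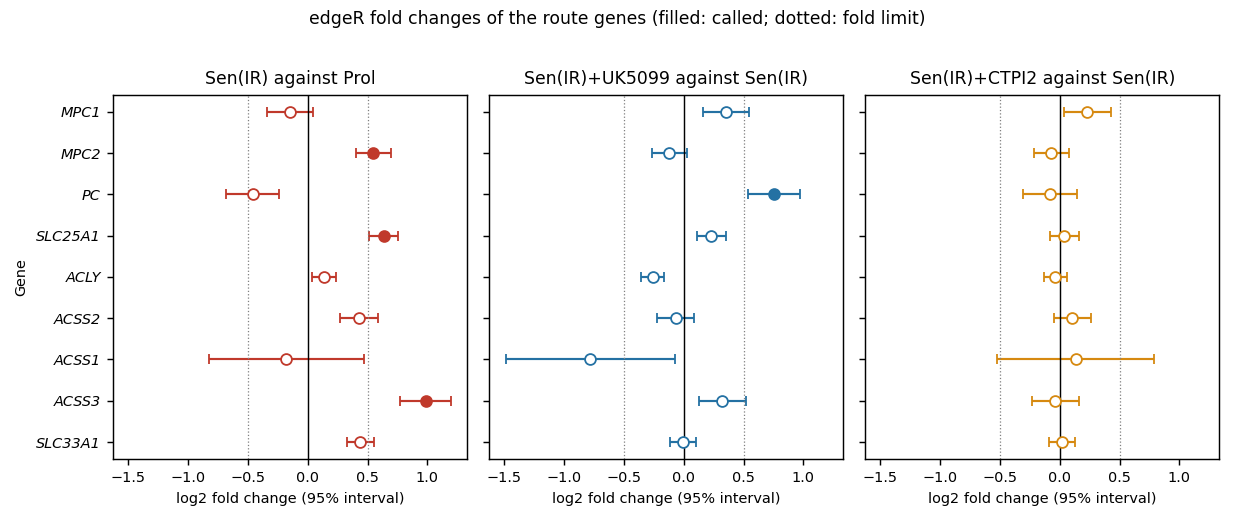
log2 fold changes (x axes) of the 9 tested genes (y axis) in 3 comparisons, with 95% intervals as bars, calls as filled circles and the fold limit of 0.5 as dotted lines. SLC25A1, ACSS3 and MPC2 are called in Sen(IR) against Prol, PC alone on UK5099 and none on CTPI2, and ACSS1 has the widest intervals.

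UK5099 was given to irradiated cells to block pyruvate import, and PC was the member that rose. It stands against 8.76% of all genes called higher and 12.1% called lower in Sen(IR)+UK5099 against Sen(IR). MPC1, SLC25A1 and ACSS3 were also higher and ACLY lower, with adjusted p under 0.05 but inside the fold limit. In total 5 of the 9 tested members did not overlap, beside 56.6% of all tested genes, and their median log2 fold change was -0.01, against 0.01 over all genes.

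PC had 14.4, 15.6 and 14.5 CPM with UK5099, above all 3 Sen(IR) libraries and also above all 3 Prol libraries. The rise over Sen(IR) was 0.75 ± 0.10 (SE, 95% interval 0.54 to 0.97, adjusted p = 3.04e-06), or 1.69-fold, and PC was called in every alternative tried but the limit of 1. Of its exon bases 8.5% are shared with LRFN4 on the other strand, which was lower in Sen(IR) than in Prol (-0.93) and 0.27 higher with UK5099.

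The drug's target complex again split. MPC1 had 19.4, 19.2 and 18.0 CPM, all above Sen(IR), with a log2 fold change of 0.35 ± 0.09 (SE, adjusted p = 0.00367). MPC2 had 50.1, 56.3 and 51.2 CPM, overlapping Sen(IR), with a log2 fold change of -0.12 (95% interval -0.26 to 0.02, adjusted p = 0.165).

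The exporter and the lyase moved apart. SLC25A1 had 111.5, 118.3 and 105.7 CPM, above all Sen(IR) libraries (0.23 ± 0.06, SE, adjusted p = 0.00213). ACLY had 326.1, 325.5 and 323.8 CPM, below every library of Sen(IR) and of Prol (-0.26 ± 0.05 against Sen(IR), SE, adjusted p = 9.21e-05). With these shifts the means of the 2 genes, 90.7 and 61.5 CPM per kb in Sen(IR), came to 75.7 and 72.2.

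ACSS3 had 19.1, 16.7 and 18.2 CPM and was higher by 0.32 ± 0.09 (SE, adjusted p = 0.00719), with LIN7A, which overlaps it, at 0.52. ACSS2 (interval -0.22 to 0.09) and SLC33A1 (interval -0.12 to 0.10) overlapped Sen(IR). ACSS1 had 11, 11 and 19 counts, and its log2 fold change of -0.78 ± 0.34 (SE) missed the limit (adjusted p = 0.066) but was called without Sen(IR)+UK5099 replicate 3 (-1.09, adjusted p = 0.0281). The summed fibroblast markers were 10910 to 11400 CPM with UK5099 against 20690 to 21280 CPM in Sen(IR), with 6 of 10 called lower. The mitochondrially encoded share was highest in this group. Of 7 senescence and cell cycle markers, 6 were called lower with UK5099, with a median log2 fold change of -2.68. Both counts stand beside 12.1% of all tested genes called lower. The largest falls were in the secreted factors CXCL8 (-8.19) and IL6 (-6.61) and in the proliferation marker MKI67 (-3.54). In Sen(IR) against Prol, 3 of the 7 had been called higher and 4 lower, beside 24.8% and 22.4% of all genes. The part of these shifts in the members' values was not tested.

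CTPI2 was given to block the citrate exporter, and edgeR called 0 of the 9 members in Sen(IR)+CTPI2 against Sen(IR). DESeq2 gave an adjusted p for 4 of the 9, the lowest 0.882, and none for the other 5. Of all tested genes 0.0185% were called higher and 0.148% lower. SLC25A1, the target, lay between 95.99 and 100.3 CPM, within the range of Sen(IR), with a log2 fold change of 0.04 (95% interval -0.08 to 0.16, adjusted p = 0.951). At an unadjusted p under 0.05 there was 1 member, MPC1, with 16.5, 16.7 and 19.0 CPM. All 3 values lay above the highest Sen(IR) library (16.4 CPM), replicates 1 and 2 by a small margin, and the log2 fold change was 0.23 (95% interval 0.04 to 0.43, adjusted p = 0.558). The share of all genes at that unadjusted p, or without overlap, is not given here for CTPI2, so no result is read from this 1 member.

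For the 8 tested members other than ACSS1, the 95% intervals on CTPI2 lay between -0.31 and 0.43, that is between 0.807-fold and 1.34-fold. PC had 8.16, 9.2 and 7.58 CPM (-0.08, interval -0.31 to 0.15) and ACLY 384.0, 396.7 and 359.3 CPM (-0.04, interval -0.13 to 0.06). For ACSS1, with 20 to 28 counts, the interval was -0.52 to 0.79. The lowest ACLY and highest MPC1 values were both in replicate 3, the library that stood apart within the CTPI2 group, and without it the ACLY value was 0.00. Of the 7 senescence and cell cycle markers, IL6 (-0.89) and CXCL8 (-1.08) were called lower with CTPI2 and 0 higher, beside 0.148% and 0.0185% of all tested genes. The part of these 2 falls in the members' values was not tested.

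The inhibitors were then compared directly. The UK5099 and CTPI2 comparisons above share their Sen(IR) libraries, so their values stand side by side and the difference rests on the direct test. PC was higher with UK5099 than with CTPI2 by 0.84 ± 0.10 (SE, adjusted p = 7.68e-07), or 1.78-fold, and ACSS1 was lower (-0.92 ± 0.33, SE, adjusted p = 0.029), beside 8.2% of all genes called higher and 11.7% called lower. The ACSS1 call rested on 11 to 28 counts per library and was lost with DESeq2 (adjusted p = 0.0683), without the filter (0.0631) and without UK5099 replicate 1 (0.086), UK5099 replicate 2 (0.106), CTPI2 replicate 1 (0.0585) or CTPI2 replicate 2 (0.0978).

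ACLY (-0.22 ± 0.05, SE, adjusted p = 0.00047), SLC25A1 (0.19 ± 0.06, adjusted p = 0.0085) and ACSS3 (0.36 ± 0.09, adjusted p = 0.00331) differed in the directions seen against Sen(IR), inside the fold limit. For MPC1 the interval was -0.07 to 0.31 and for MPC2 -0.20 to 0.09, so a difference between the inhibitors was not shown for either.

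Against Prol, which both inhibitor groups share with Sen(IR), SLC25A1 and ACSS3 were called higher with each inhibitor. MPC2 was also above Prol with UK5099 (0.43, adjusted p = 1.13e-05) and with CTPI2 (0.48, adjusted p = 2.94e-06), with no overlap but short of the fold limit. It passed the limit under upper-quartile scaling (0.56 with UK5099, 0.59 with CTPI2) and without Prol replicate 3 (0.51 and 0.56). With UK5099 SLC25A1 was 0.87 ± 0.06 (SE, adjusted p = 7.18e-12) and ACSS3 1.31 ± 0.10 (SE, adjusted p = 6.2e-11) above Prol, and ACSS1 was lower (-0.96, adjusted p = 0.0119; 0.0537 without UK5099 replicate 2). All 9 tested members lay outside the range of Prol, as did 74.5% of all tested genes, and the 2 called higher and 1 called lower stand beside 26.9% and 26.2% of all genes. PC was 0.29 above Prol (adjusted p = 0.0105) and ACLY -0.13 (adjusted p = 0.0204), and this sign of ACLY turned to 0.01 under upper-quartile scaling. With CTPI2 SLC25A1 (0.67), ACSS2 (0.53) and ACSS3 (0.95) were called higher and PC lower (-0.54, adjusted p = 9.32e-05), beside 24.8% and 21.9% of all genes. The ACSS2 call was lost without Prol replicate 1 (0.46), and the PC call without Prol replicate 2 (-0.45), without CTPI2 replicate 3 (-0.49) and under upper-quartile scaling (-0.43).

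The genes around the route were described by 9 lists. Their counts in Sen(IR) against Prol stand beside the 24.8% of all genes called higher and 22.4% called lower, and those on UK5099 beside 8.76% and 12.1%. In Sen(IR) against Prol, 2 of 12 genes around pyruvate dehydrogenase were called higher and 1 lower. The kinases PDK4 (from 0.389 ± 0.295 to 10.3 ± 0.477 CPM, SD, n = 3; log2 fold change 4.74) and PDK2 (1.32), which switch the complex off, rose, and the phosphatase PDP1 (-1.05), which switches it on, fell. The subunits PDHA1 (-0.36), PDHB (-0.35), DLAT (-0.34), DLD (0.18) and PDHX (0.36) and the kinase PDK1 (0.38) had adjusted p under 0.05 inside the fold limit. Of 8 genes of citrate synthesis and use, 3 fell, namely citrate synthase CS (-0.82), IDH2 (-1.07) and IDH3A (-0.66), and the cytosolic aconitase ACO1 rose (0.75). Of 7 genes on the malate side, the dicarboxylate carrier SLC25A10 fell (-1.30), and of 9 genes that use acetyl-CoA for lipids, ACAT2 (-1.74) and SCD (-0.98) fell and 0 were called higher. The factors of the SREBP list drive sterol and fatty acid genes. Of its 10 genes, 4 were called higher (INSIG2 1.10, SCAP 0.87, SREBF2 0.69 and LPIN1) and 2 lower, among them INSIG1 (-1.03).

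The list of carnitine shuttle genes and acyl-CoA thioesterases had 5 of 8 tested genes higher and 0 lower, among them the carnitine carrier SLC25A20 (1.22), the carnitine acyltransferase CPT1A (0.82) and the thioesterase ACOT8 (0.75). Its median log2 fold change was 0.57, against 0.01 over all genes. At the plasma membrane, the monocarboxylate carrier SLC16A3 (1.03) and SLC13A3 (0.98), a dicarboxylate carrier of the family of SLC13A5, rose, among 5 of 7 genes tested. Of 7 biotin genes, which include those that charge PC with its cofactor, the vitamin carrier SLC5A6 fell (-0.66), and of 9 tested genes of 11 for acetyl transfer, the deacetylase SIRT1 (-0.73) and the acetyltransferases KAT7 (-0.67) and CREBBP (-0.65) fell.

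With UK5099 SLC16A3 (-0.92), SLC16A7 (-0.74), ACO1 (-0.56), SLC25A20 (-0.51) and CPT1A (-0.51) fell against Sen(IR), and SLC13A3 (0.88), LPIN1 (0.69), IDH2 (0.51) and SREBF2 (0.50) rose, the SREBP list having 3 of 10 genes called higher and 0 lower. This comparison shares its Sen(IR) libraries with the one above, so the level against Prol is given directly. There UK5099 cells differed by 0.12 for SLC16A3, 0.18 for ACO1, 0.32 for CPT1A, 0.71 for SLC25A20 and -0.56 for IDH2, and by 1.86 for SLC13A3, 1.28 for LPIN1, 1.19 for SREBF2 and -1.18 for SLC16A7. PDHX, a structural subunit of pyruvate dehydrogenase, fell (-0.80), which was the 1 call of 12 in its list. Of the 7 biotin genes, 2 rose, PCCA (0.75), a subunit of propionyl-CoA carboxylase, and HLCS (0.52), the ligase that attaches biotin to PC, and the list median was 0.25 against 0.01 over all genes. The acetyl-CoA carboxylases ACACB (0.62) and ACACA (0.57), the malic enzyme ME3 (0.59) and the acetyltransferase KAT2B (0.65) rose too. On CTPI2, edgeR called 0 genes in each of the 9 lists, with 0 to 2 genes per list at an unadjusted p under 0.05. The share of all genes at that unadjusted p is not given here.

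**Figure D4:**
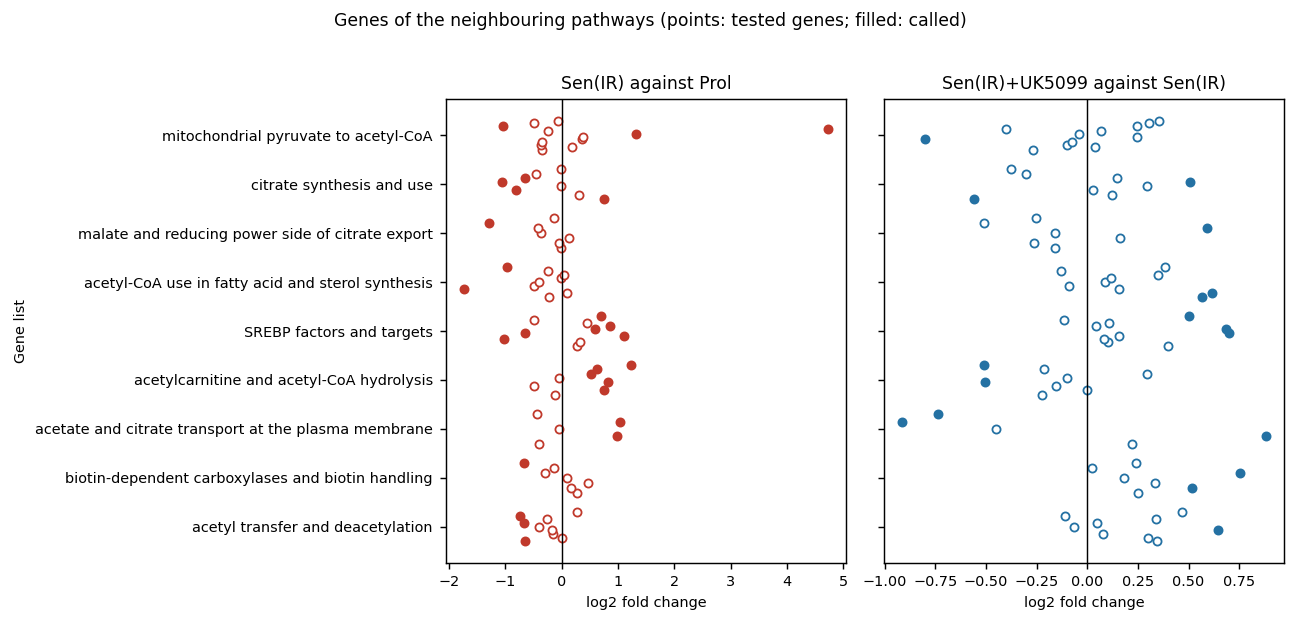
log2 fold changes (x axes, which differ in range between the panels) of the tested genes in 9 lists around the route (y axis), with calls filled, in Sen(IR) against Prol (left) and Sen(IR)+UK5099 against Sen(IR) (right). PDK4 stands alone at 4.74 on the left, and the carnitine and thioesterase list has 5 genes called higher on the left and 2 called lower on the right.

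The genes most like 5 of the members across the 12 libraries were found by the root mean square difference of centred log2 CPM among 9611 genes, as a description. For SLC25A1 they were IVD (0.04), CHMP1B (0.04) and PRCP (0.05), of which IVD, an enzyme of leucine breakdown, went from 48.1 CPM in Prol to 74.6 in Sen(IR), 87.5 with UK5099 and 74.5 with CTPI2. For ACLY they were UBA1, DNAJB12 and CCDC47 (0.04 each). MPC2 was closest to TMCO1 (0.05), RNF149 (0.05) and SPCS1 (0.06), and ACSS2 to ODR4 (0.05), NSF (0.07) and CCDC149 (0.07). MPC1 had the least close matches of the 5, RPL15 (0.08), SERPINB1 (0.09) and FPGT (0.09). It also had the lowest counts of the 5, 288 to 518 per library, and the part of counting error in these distances was not tested.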

How the data were processed

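RNA was extracted by the authors with a column kit from MRC5 cells and sequenced as paired reads of 150 bases. Per the labels, reads were trimmed with Trimmomatic 0.36, aligned to GRCh38 with STAR 2.5.2b and counted per gene with featureCounts (Subread 1.5.2). The authors deposited raw counts for 57500 genes in 12 libraries, with no columns of other samples (0). Per the study's methods, reads with a unique hit in exons were counted, by strand only for a stranded preparation, and the preparation is not given in the sources used here. With 20597736 to 28245693 counts per library, a floor of 3 counts is 0.111 to 0.147 CPM, and covers counting error only.

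Counts were filtered (filterByExpr, 16251 genes, 99.9% of counts), scaled by TMM and fitted in 1 quasi-likelihood model of all 4 groups (edgeR 4.0.16, R 4.3.3), with Benjamini-Hochberg adjustment over all tested genes. The script was tested on simulated data. DESeq2 1.42.0, other scalings, filters, limits and left-out libraries were alternatives. Gene positions and lengths came from GENCODE on GRCh38 (56410 identifiers matched, all 10 members among them). Named were the 10 members, the called genes of each list with the largest fold changes (up to 3 each way per comparison), and the 3 genes most like each of MPC1, MPC2, SLC25A1, ACLY and ACSS2 (mean log2 CPM over 3). DCAF6, LIN7A and LRFN4 were added because they overlap members, and LPIN1 in Sen(IR) against Prol because it was the remaining call of its list. A gene of the SREBP list that the rule names is not reported here. The members and lists were chosen with earlier results of these data known, and the promoter motifs after the data were seen.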

Additional observations from a re-analysis of the deposited data

How the results depend on the processing

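The counts of called members depended mostly on the fold limit. With no fold limit they were 7 for Sen(IR) against Prol, 5 for UK5099 against Sen(IR), 5 for UK5099 against CTPI2 and 8 for UK5099 against Prol, from 3, 1, 2 and 3. For CTPI2 against Prol they went from 4 to 6. With a limit of 1 they were 0, 0, 0 and 1, and 0 in place of 4 for CTPI2 against Prol. Upper-quartile scaling gave 5 for Sen(IR), 6 for UK5099 and 5 for CTPI2 against Prol. It moved the median of all genes against Prol by 0.12 (Sen(IR)), 0.14 (UK5099) and 0.11 (CTPI2). The unadjusted p limit gave 2 for UK5099 against Sen(IR). DESeq2, and no filter on low counts, gave 1 for UK5099 against CTPI2. Leaving out 1 library gave 1 to 2 for UK5099 against Sen(IR) and 1 to 2 for UK5099 against CTPI2. Against Prol it gave 3 to 4 for Sen(IR), 2 to 4 for UK5099 and 3 to 5 for CTPI2. The share of all tested genes called under each of these other settings is not given here, so these counts cannot be set against a background. The cause of these moves was not tested beyond the construction of each limit.

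Of 648 values of single members, 614 kept their direction and side of the limits, 12 lost a call, 13 gained 1 and 9 turned sign, all 9 near 0. The 614 include the DESeq2 values on CTPI2 without an adjusted p, which could be checked only for direction and fold limit. Under upper-quartile scaling SLC33A1 came to 0.0115 for UK5099 against Sen(IR) and 0.0006 against CTPI2, ACLY to 0.0145 for UK5099 against Prol and ACSS1 to 0.0649 for CTPI2 against Prol. Leaving out 1 library gave -0.0255 to 0.0125 for SLC33A1 (UK5099 against Sen(IR)), -0.0678 to 0.0039 for ACLY and -0.0824 to 0.0108 for ACSS3 (CTPI2 against Sen(IR)), and -0.1563 to 0.044 for ACSS1 (CTPI2 against Prol).

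Replicate numbers are shared between groups, and the labels do not say whether they pair the libraries. Deviations of same-numbered libraries correlated at -0.05 to 0.04 and those of different numbers at -0.06 to 0.10. Of 12 libraries, 5 correlated best with their own number. A shared effect of the number was thus not visible, which cannot show that the numbers do not pair. With a replicate block the counts of called members were 3, 1, 0, 2, 3 and 4 in the 6 comparisons, as without it. Depth limits ACSS1 (11 to 29 counts per library) and SLC13A5.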
